A study of Mus musculus with 6 samples.

Results

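The response of bone marrow-derived macrophages (BMDMs) to 2 h of lipopolysaccharide (LPS) was described in 4 gene-specific TAIL-seq libraries. BMDMs are primary macrophages grown from marrow progenitors. The libraries came from Tut7-/- BMDMs at LPS 2 h, Tut7-/- BMDMs without LPS (Ctrl), wild-type BMDMs at LPS 2 h and wild-type Ctrl BMDMs, with 1 library for each. All donors were 7-week-old female C57BL/6J mice. Cells of both genotypes were differentiated for 7 days in 20% L929-conditioned medium and then held overnight in 10 ng/ml M-CSF. The Tut7-/- mice were made by CRISPR/Cas9 editing, so the knockout is not limited to macrophages. The sources used here do not give the LPS dose of this experiment, how many animals a library came from or any pooling. Genes with 10 or more reads over the 4 libraries were taken, which left 259 of the 964 genes with a read in any of the 6 libraries of the series. Of these, 11 held exactly 10 reads, and 16 genes just outside held 9. The question was which genes moved the same way in both genotypes and which did not.

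LPS of Gram-negative bacteria is sensed by Toll-like receptor 4. The receptor signals through MyD88 to NF-kB and MAP kinases, which switch on cytokine genes such as Tnf and Il6, and through TRIF to interferon beta, whose receptor then induces antiviral genes such as Usp18. Many of these cytokine mRNAs are short-lived, and the RNase Regnase-1, encoded by Zc3h12a, cuts stem-loops in their 3′ UTRs. The enzyme encoded by Tut7 attaches uridines to the 3′ ends of RNA.

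In this assay an adapter, linker-1, is ligated to RNA 3′ ends, and transcript ends are then amplified with gene-specific forward primers and a linker primer. The methods name forward primers for Zc3h12a and Il6 only, so the reads of every other gene, Il10, Tnf and Usp18 included, came from RNA with no primer named for it. How such reads entered the libraries was not tested. The pair below is the linker and the forward primer named for Il6, the gene with the largest ratio in both genotypes.
Il6 forward primer: tgtttagactgtcttcaaacaaataaa
Linker-1: ctgtaggcaccatcaat
The primer matches the last exon of Il6, in the 3′ UTR, at chr5:30019929-30019955 (mm10, plus strand). Both sequences were read from the deposited Il6 read lists of the Ctrl libraries. Filtered by the authors for both sequences, these lists held 207 reads in Tut7-/- Ctrl and 277 in wild-type Ctrl. That each of these reads had the primer and the linker follows from the selection. Only 0 and 3 of them continued into Il6 over the next 13 bases (up to 2 mismatches), whereas the gene tables counted 2 and 0 Il6 reads. Most reads of these Ctrl lists thus did not match the Il6 bases next to the primer. Bases were compared position by position, so a shifted or earlier-ended Il6 read could be missed.

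All values are parts of 1 amplified pool per library, and fewer responding cells cannot be told apart from less RNA per cell. The libraries held 55922 reads (Tut7-/- LPS 2 h), 21408 (Tut7-/- Ctrl), 44626 (wild-type LPS 2 h) and 26027 (wild-type Ctrl), which is low depth. The 5 genes with the most reads took 90.8% of reads in each LPS 2 h library, against 75.7% in Tut7-/- Ctrl and 78.8% in wild-type Ctrl. The median gene among the 259 had 23 reads over the 4 libraries, 222 had fewer than 100, and 62 had reads in 1 library only. A count of 0 allows 3 reads, a share of up to 0.0054% to 0.014%. Tut7 had 0 reads in all 4 libraries, so these counts do not check the knockout label. Of 17 defining macrophage markers, 13 had no read and the others at most 4. In a wider list of 26, 6 had reads, and only Gpr65 reached 10 (23 and 66 reads in Tut7-/- LPS 2 h and Ctrl, and 31 and 72 in wild-type LPS 2 h and Ctrl). Lists of T and NK cell, B cell, neutrophil, stromal and erythroid markers had none, so the amplified pool does not check the cell type.

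At LPS 2 h most genes held a lower share of reads than in Ctrl in both genotypes, and a small set held a higher one. The log2 ratio of shares (LPS 2 h over Ctrl, pseudocount 0.5 read) had a median of -2.64 in Tut7-/- and -2.36 in wild type. A gene was called when its fold was at least 2 in either direction and the exact 95% interval left out 1. In Tut7-/-, 22 of 259 genes were higher (8.49%) and 137 lower (52.9%). In wild type, 28 were higher (10.8%) and 113 lower (43.6%). Of the 259 genes, 70 had reads in Ctrl only and 24 in LPS 2 h only. These passed the read minimum through 1 condition alone, so their direction is no separate support. The intervals describe counting error alone, since PCR copies that carry no molecular identifier cannot be taken as separate molecules. They compare libraries, not conditions. Shares sum to 100%, so a few genes that gain reads lower all others. Each log2 value below is therefore also given relative to the median gene of its pair of libraries where this changes the reading.

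Genes called in the same direction in both genotypes numbered 7 higher (2.7%) and 63 lower (24.3%). The 7 higher genes together held 16.2% of reads in Tut7-/- LPS 2 h against 2.62% in Tut7-/- Ctrl, and 16% in wild-type LPS 2 h against 2.70% in wild-type Ctrl. The 63 lower genes held 3.17% against 26.2% in Tut7-/-, and 3.06% against 30.4% in wild type. Of the genes called higher in Tut7-/-, 31.8% were also higher in wild type, where 10.8% of all 259 were. Of the genes called lower in Tut7-/-, 46.0% were also lower in wild type, a share near the 43.6% of all genes. Likewise 55.8% of the genes lower in wild type were lower in Tut7-/-, against 52.9% of all. Sharing of lower calls was thus close to its background over the whole set.

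**Figure D1:**
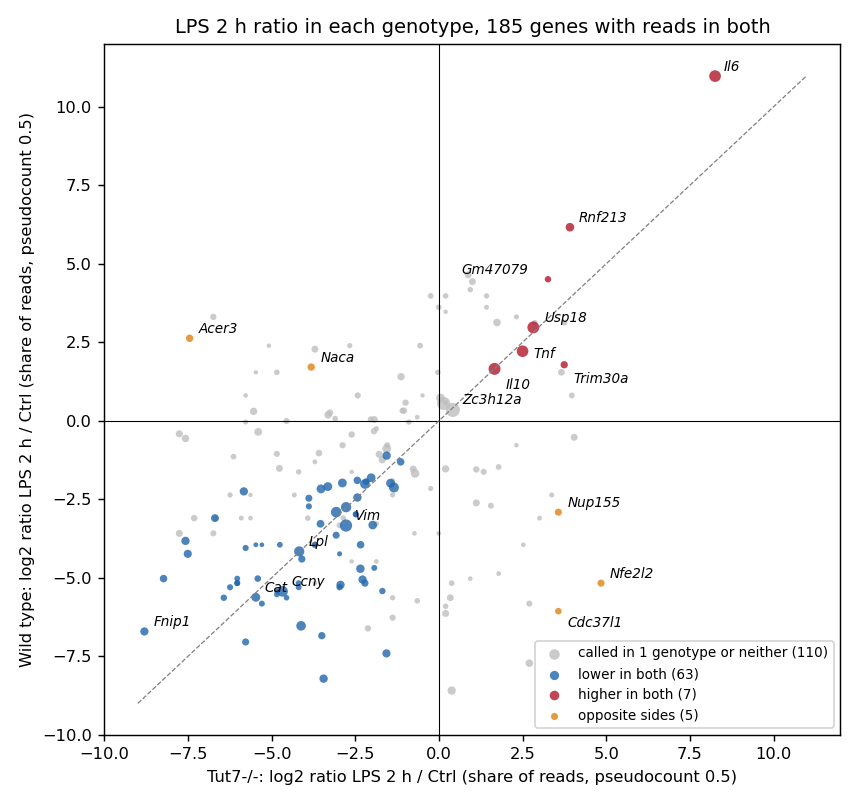
Log2 ratio of read shares, LPS 2 h over Ctrl, in Tut7-/- (horizontal axis) and wild-type BMDMs (vertical axis) for the 185 genes with reads in both genotypes. Each point is 1 gene, larger with more reads, and the dashed line marks equal ratios. Il10, Usp18 and Tnf lie close to that line, 136 genes have the same sign in both genotypes, and 5 genes have opposite calls.

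The largest ratio belonged to Il6, an inflammatory cytokine of the acute-phase response. It had 1991 reads in Tut7-/- LPS 2 h and 2 in Tut7-/- Ctrl, and 1728 in wild-type LPS 2 h and 0 in wild-type Ctrl. In Tut7-/- the ratio was 381 (95% interval 105 to 3149). In wild type it was at least 335.9-fold higher, taking 3 reads in the empty library as the floor, with an exact interval that starts at 273. Both LPS 2 h libraries stood far above both Ctrl libraries, at 3.56% and 3.87% of reads.

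Il10, the anti-inflammatory cytokine that restrains macrophage activation, had 2367 reads in Tut7-/- LPS 2 h and 286 in Tut7-/- Ctrl, and 2122 in wild-type LPS 2 h and 393 in wild-type Ctrl. The folds were 3.17 (2.80 to 3.59) in Tut7-/- and 3.15 (2.83 to 3.52) in wild type. The ratio of these folds, Tut7-/- over wild type, was 1.01 (0.852 to 1.19), the closest match between genotypes among these cytokines. Unlike Il6, Il10 already held 1.34% and 1.51% of the Ctrl libraries.

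Tnf, the early cytokine that activates endothelium and other leukocytes, had 1809 reads in Tut7-/- LPS 2 h and 122 in Tut7-/- Ctrl, and 1373 in wild-type LPS 2 h and 172 in wild-type Ctrl. It was 5.68-fold (4.72 to 6.88) higher in Tut7-/- and 4.66-fold (3.97 to 5.49) in wild type. The ratio of the folds was 1.22 (0.951 to 1.57), an interval that holds 1.

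Usp18 removes the ubiquitin-like protein ISG15 from its targets and dampens signalling of the type I interferon receptor. It had 2741 reads in Tut7-/- LPS 2 h and 148 in Tut7-/- Ctrl, and 1798 in wild-type LPS 2 h and 133 in wild-type Ctrl. This was 7.09-fold (6.01 to 8.42) and 7.88-fold (6.61 to 9.48) higher, with a ratio of folds of 0.899 (0.701 to 1.15). In both genotypes Usp18 had the largest fold among genes with over 100 reads in each Ctrl library.

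The other 3 genes higher in both were measured with far fewer reads. Rnf213 is a giant RING-finger ubiquitin ligase. It had 98 reads in Tut7-/- LPS 2 h and 2 in Tut7-/- Ctrl, and 61 in wild-type LPS 2 h and 0 in wild-type Ctrl. Its ratio was 18.8 (5.06 to 157) in Tut7-/-, and it was at least 11.9-fold higher in wild type. Trim30a, a mouse TRIM protein induced by interferon, had 17 and 0 reads in Tut7-/- LPS 2 h and Ctrl, and 32 and 5 in wild-type LPS 2 h and Ctrl. Gm47079, annotated as an antisense transcript, had 12 and 0 reads in Tut7-/- LPS 2 h and Ctrl, and 19 and 0 in wild-type LPS 2 h and Ctrl. The sources used here do not say whether counting used strand, so its reads cannot be told apart from those of an overlapping gene.

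At LPS 4 h, which is set against the same Ctrl libraries, these genes were not at 1 common level. The log2 ratios to Ctrl at 4 h in Tut7-/- and wild type were 2.61 and 2.03 for Il10, 2.92 and 3.23 for Usp18, and 1.94 and 1.14 for Tnf. At 2 h they were 1.66 and 1.65 for Il10, 2.82 and 2.97 for Usp18, and 2.5 and 2.22 for Tnf. In Tut7-/- and wild type, Il6 was at 8.72 and 11.39 at 4 h, and at 8.25 and 10.98 at 2 h. Rnf213 was at 5.60 and 6.57 at 4 h, and at 3.91 and 6.16 at 2 h. The Il6 and Rnf213 values depend on the pseudocount, as Ctrl held 2 and 0 reads of each. Trim30a had 5 and 2 reads in the Tut7-/- and wild-type LPS 4 h libraries.

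**Figure D2:**
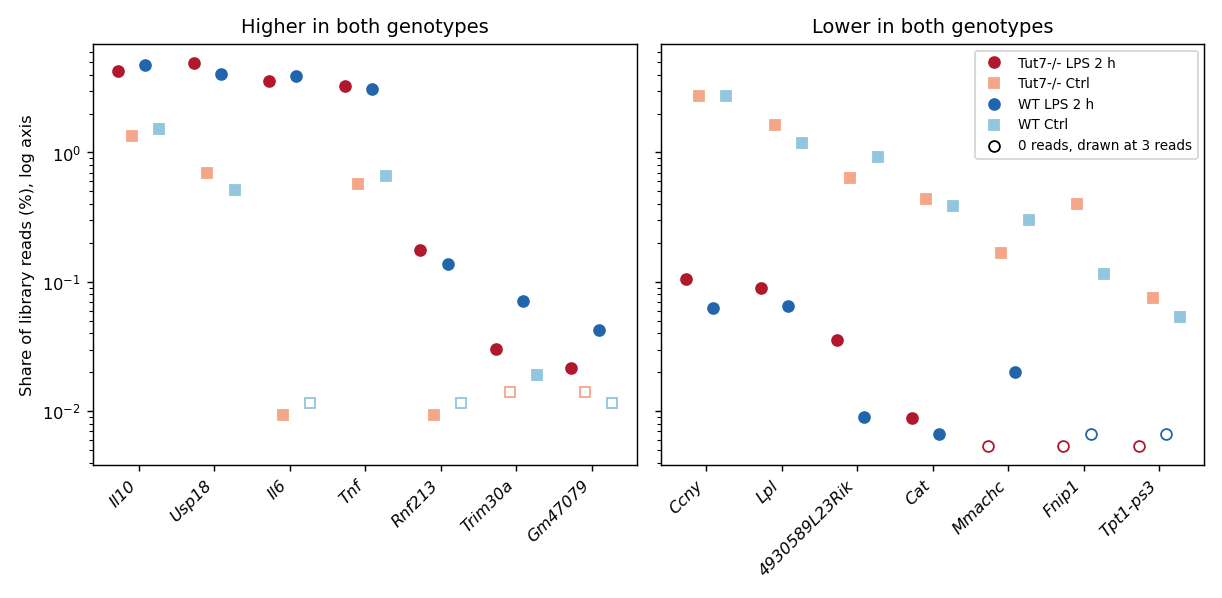
Share of library reads (%, log axis) in each of the 4 libraries for the 7 genes called higher (left) and the 7 called lower (right) in both genotypes under all 5 scalings. Circles are LPS 2 h and squares Ctrl, and open symbols mark 0 reads, drawn at 3 reads. In each gene of the left panel both LPS 2 h libraries lie above both Ctrl libraries, and in each gene on the right both lie under them.

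The calls of all 7 higher genes stood in both genotypes under 5 scalings of the libraries. These were the library total, TMM factors, DESeq2 size factors, the total without the 10 most abundant genes, and centring on the median gene. Compared with the library total, each of the others raised every ratio in both genotypes. A higher call could therefore not be lost under them, and its standing is no further support. Relative to the median gene, Il6 was at 10.9 in Tut7-/- and 13.3 in wild type, Usp18 at 5.46 and 5.34, Tnf at 5.14 and 4.58, and Il10 at 4.30 and 4.02 (log2).

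A test over both genotypes used the additive edgeR quasi-likelihood fit, in which the genotypes stand in for replicates of LPS 2 h and of Ctrl. Of 87 genes tested, 4 rose (4.6%) and 7 fell (8.05%) at a Benjamini-Hochberg adjusted p under 0.05. Those that rose were Usp18 by 2.90 ± 0.11 (log2, SE; edgeR adjusted p = 0.00745), Tnf by 2.36 ± 0.13 (0.00745), Il10 by 1.66 ± 0.09 (0.00745) and Il6 by 9.67 ± 0.94 (0.0219). The SE was back-calculated from the F statistic. The Il6 estimate depends on the prior count, as its Ctrl libraries held 2 and 0 reads. Rnf213 had 5.38 and did not pass (edgeR adjusted p = 0.164). In simulated counts this fit recovered 11% of 16-fold changes, so a gene that did not pass is not shown to be unchanged.

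These tests rest on 1 residual degree of freedom, and the spread is the departure of the genotypes from additivity. With DESeq2 size factors only Ccny (-2.95, edgeR adjusted p = 0.0171) and Lpl (-2.07, 0.0472) still fell. With TMM factors edgeR called 0 genes in either direction, with 11 genes at an unadjusted p under 0.05. In fits of the 6 libraries with 1 left out, Il10 and Tnf lost their calls without Tut7-/- LPS 2 h (log2 1.79 and 2.41, edgeR adjusted p = 0.231 and 0.142) or without wild-type LPS 2 h (1.51 and 2.29, 0.541 and 0.205). Actr2 and Tlk1, described below with Lpl, Cat and CT010467.1, lost theirs without the same libraries (edgeR adjusted p of 0.1 to 0.218 for Actr2 and 0.291 to 0.335 for Tlk1). Lpl lost its call without Tut7-/- LPS 2 h (-4.03, edgeR adjusted p = 0.0595), Cat in all 4 fits (0.0676 to 0.205), and CT010467.1 in all but the fit without Tut7-/- Ctrl (0.0639 to 0.733). Usp18, Il6, Vim and Ccny stayed called in all 4 of these fits. The fitted Il6 value was 8.54 without wild-type Ctrl and 13.77 without Tut7-/- Ctrl.

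Zc3h12a, which encodes Regnase-1 and is a gene the study is about, had 33593 reads in Tut7-/- LPS 2 h and 9645 in Tut7-/- Ctrl, and 27878 in wild-type LPS 2 h and 12785 in wild-type Ctrl. It held 60.1% against 45.1% of reads in Tut7-/-, and 62.5% against 49.1% in wild type. The folds of 1.33 (1.30 to 1.36) and 1.27 (1.25 to 1.30) were under 2 and so were not called, although both intervals left out 1. The ratio of the folds, Tut7-/- over wild type, was 1.05 (1.02 to 1.08).
The fold of a share this large in Ctrl is bounded, because no share can pass 100%. Zc3h12a was called higher in both genotypes under the other 4 scalings. These raised every ratio, so the calls are no separate support for a rise. Relative to the median gene Zc3h12a was at 3.05 in Tut7-/- and 2.71 in wild type (log2). In the additive fit Zc3h12a was at 0.38 ± 0.09 (log2, SE; edgeR adjusted p = 0.125), and whether it passed depended on the scaling. With DESeq2 size factors it was at 2.49 on the log2 scale (edgeR adjusted p = 0.0147). Without the 10 most abundant genes in the totals it was at 2.58 (edgeR adjusted p = 0.0494). With TMM factors it was at 2.43 and did not pass (edgeR adjusted p = 0.337).

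Of the other genes the study is about, Il12b, Nfkbia, Tut4, Zc3h12c and Dis3l2 had 0 reads in all 4 libraries. Il1b had 1 read in each LPS 2 h library and 0 in Ctrl. Their response could not be measured in these libraries, and no forward primer is named for them.

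Among genes called lower in both genotypes, 7 of 63 were called so under all 5 scalings, in both genotypes. Ccny, a membrane-anchored cyclin that activates CDK14 and CDK16, had 59 reads in Tut7-/- LPS 2 h and 582 in Tut7-/- Ctrl, and 28 in wild-type LPS 2 h and 716 in wild-type Ctrl. Its folds were 0.0388 (0.0292 to 0.0508) and 0.0228 (0.0150 to 0.0332). The additive fit gave -5.06 ± 0.29 (log2, SE; edgeR adjusted p = 0.00745).

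Lpl, lipoprotein lipase, which frees fatty acids from triglyceride-rich particles, had 50 reads in Tut7-/- LPS 2 h and 349 in Tut7-/- Ctrl, and 29 in wild-type LPS 2 h and 307 in wild-type Ctrl. The folds were 0.0548 (0.0399 to 0.0739) and 0.0551 (0.0363 to 0.0807), and Lpl fell by 4.18 ± 0.15 on the log2 scale in the additive fit (edgeR adjusted p = 0.00745). Cat, catalase, which breaks down hydrogen peroxide, had 5 reads in Tut7-/- LPS 2 h and 93 in Tut7-/- Ctrl, and 3 in wild-type LPS 2 h and 100 in wild-type Ctrl. It fell by 5.65 ± 0.42 on the log2 scale (edgeR adjusted p = 0.0115). In Lpl and Cat the ratio of the folds was 0.995 (0.600 to 1.67) and 1.17 (0.221 to 7.76), so the genotypes were close for Lpl and poorly resolved for Cat.

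The remaining 4 of these 7 were absent from at least 1 LPS 2 h library or differed in size between genotypes. Fnip1, a folliculin partner in AMPK and mTOR signalling, had 0 and 85 reads in Tut7-/- LPS 2 h and Ctrl, and 0 and 30 in wild-type LPS 2 h and Ctrl. It was at least 74-fold lower in Tut7-/- and at least 17.1-fold lower in wild type. Mmachc, which processes vitamin B12, had 0 and 36 reads in Tut7-/- LPS 2 h and Ctrl, and 9 and 78 in wild-type LPS 2 h and Ctrl. Tpt1-ps3, a processed pseudogene of Tpt1, had 0 and 16 reads in Tut7-/-, and 0 and 14 in wild type, LPS 2 h before Ctrl. Its reads may be shared with its parent gene. The long noncoding RNA 4930589L23Rik had 20 and 136 reads in Tut7-/- LPS 2 h and Ctrl, and 4 and 242 in wild-type LPS 2 h and Ctrl.

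Other genes with many reads were lower in share but nearer to the median gene, most so in Tut7-/-. Vim, the intermediate filament vimentin, had 798 reads in Tut7-/- LPS 2 h and 2097 in Tut7-/- Ctrl, and 638 in wild-type LPS 2 h and 3760 in wild-type Ctrl. It fell by 3.06 ± 0.20 on the log2 scale in the additive fit (edgeR adjusted p = 0.0088), and relative to the median gene it was at -0.14 in Tut7-/- and -0.97 in wild type. Actr2, the ARP2 subunit of the actin-branching complex, had 115 and 371 reads in Tut7-/- LPS 2 h and Ctrl, and 106 and 466 in wild-type LPS 2 h and Ctrl. Tlk1, a kinase of chromatin assembly factors, had 97 and 255 reads in Tut7-/- LPS 2 h and Ctrl, and 89 and 351 in wild-type LPS 2 h and Ctrl. Both fell in the additive fit, with -2.99 ± 0.14 for Actr2 and -2.77 ± 0.15 for Tlk1 (log2, SE; edgeR adjusted p = 0.00745 for each), while the median gene of that fit was at -2.77. Relative to the median gene of each pair of libraries, Actr2 was at -0.43 in Tut7-/- and -0.55 in wild type, and Tlk1 at -0.14 and -0.39.

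For some genes the direction itself depended on the scaling. CT010467.1, annotated as rRNA, had 77 and 137 reads in Tut7-/- LPS 2 h and Ctrl, and 66 and 156 in wild-type LPS 2 h and Ctrl. It fell by 2.12 ± 0.22 on the log2 scale in the additive fit (edgeR adjusted p = 0.0239), yet relative to the median gene it was at 0.42 and 0.35 in Tut7-/- and wild type. Rab10, a GTPase of membrane traffic, had 109 and 106 reads in Tut7-/- LPS 2 h and Ctrl, and 96 and 245 in wild-type LPS 2 h and Ctrl. It was lower in share in both but at 1.29 and 0.24 relative to the median gene, and it was picked after its values were seen. In all, 23 of the 63 genes lower in both changed sign in at least 1 genotype under another scaling. Of the 7 higher in both, 0 did, but the other scalings only raised ratios, so these genes could not change sign.

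Further genes with the largest lower calls in both were measured with few reads. Abca1, the cholesterol exporter, had 0 and 10 reads in Tut7-/- LPS 2 h and Ctrl, and 0 and 38 in wild-type LPS 2 h and Ctrl. Rin3, a Rab5 activator, had 0 and 57 in Tut7-/- LPS 2 h and Ctrl, and 0 and 9 in wild-type LPS 2 h and Ctrl. Rtf2, a replication fork protein, had 1 and 104 in Tut7-/- LPS 2 h and Ctrl, and 0 and 5 in wild-type LPS 2 h and Ctrl. Another was Fam214a, with 4 and 19 in Tut7-/- LPS 2 h and Ctrl, and 0 and 33 in wild-type LPS 2 h and Ctrl. The Ctrl counts of these genes differed between genotypes, and in Abca1, Rin3 and Rtf2 1 Ctrl library held 10 reads or fewer.

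**Figure D3:**
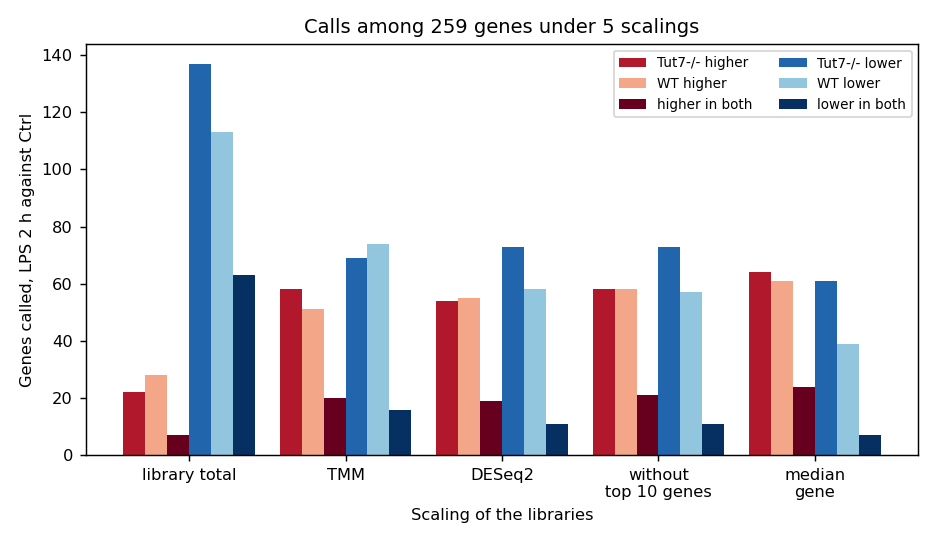
Number of the 259 genes called higher or lower at LPS 2 h against Ctrl in Tut7-/-, in wild type and in both (vertical axis) under 5 scalings (horizontal axis). Lower calls in both numbered 63 with the library total and 7 to 16 under the other scalings, and higher calls in both 7 and 19 to 24.

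Agreement between the genotypes was lowest among genes with few reads. Among 109 genes with 10 to 19 reads over the 4 libraries, 6 had the same call in both genotypes (5.50%) and 80 were called in 1 genotype only. Among 113 genes with 20 to 99 reads, 33 had the same call (29.2%), 5 opposite calls and 67 a call in 1 only. Among 28 genes with 100 to 999 reads, 24 had the same call (85.7%), and among 9 genes with 1000 or more, 7 did (77.8%) and the other 2 were called in neither. With the library total no gene with 100 or more reads was called on opposite sides, but Ccdc77, with 122 reads, was so called under the 4 other scalings. The same-direction calls were 1 higher and 23 lower at 100 to 999 reads, and 4 higher and 3 lower at 1000 or more. How often genes were called also rose with reads up to 999. In Tut7-/- and wild type, 41 and 32 of the 109 genes were lower, 69 and 53 of the 113, and 24 and 25 of the 28. Up to 999 reads, agreement thus cannot be told apart from the rate of lower calls in each class.

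Across genes, the log2 ratios of both genotypes had a Pearson correlation of 0.357 (Spearman 0.303) over the 185 genes with reads in both genotypes and 0.480 (0.416) over the 89 with 10 or more reads in each pair of libraries. Over the 9 genes with 1000 or more reads Pearson was 0.992, with Il6 as the most extreme point (Spearman 0.967). The same sign was seen in 136 of 185 genes (73.5%), and in 115 (62.2%) relative to the median gene. Genes are not independent replicates, and the values share library totals.

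**Figure D4:**
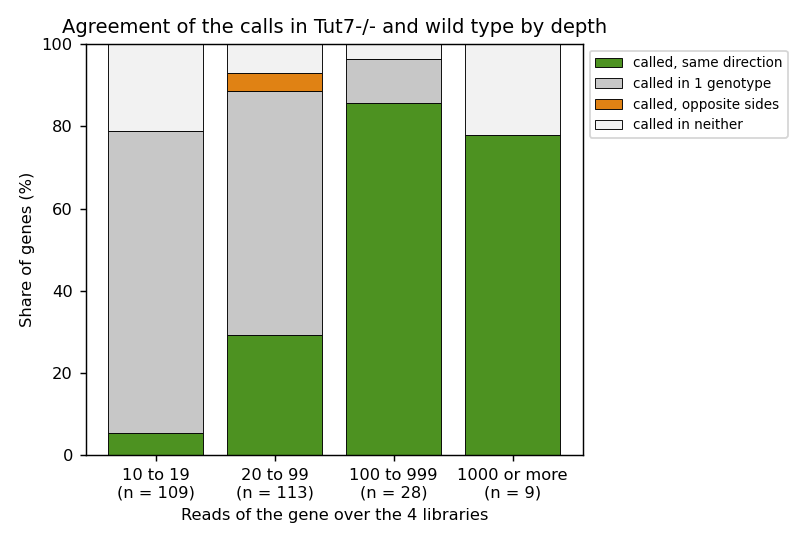
Share of genes (%, vertical axis) by the agreement of their Tut7-/- and wild-type calls, in 4 classes of reads summed over the 4 libraries (horizontal axis). The share with the same call is 5.50% in the class of 10 to 19 reads and 85.7% in that of 100 to 999 reads. Genes lower in Tut7-/- and wild type numbered 41 and 32 of 109 in the former and 24 and 25 of 28 in the latter.

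Calls in 1 genotype alone were mostly of genes that the other genotype hardly measured. Of all 259 genes, 154 had 10 or more wild-type reads and 170 had 10 or more Tut7-/- reads. A gene without reads in a genotype could not be called there. Of 72 genes lower in Tut7-/- alone, 59 had fewer than 10 wild-type reads and 32 had none. Of 47 genes lower in wild type alone, 39 had fewer than 10 Tut7-/- reads and 21 had none. Of 12 higher in Tut7-/- alone, 10 had fewer than 10 wild-type reads, and of 19 higher in wild type alone, 16 had fewer than 10 Tut7-/- reads. Reads in 1 genotype only were found for 43 of the 259 genes in Tut7-/- and 31 in wild type. An example is Son, a splicing cofactor, with 0 and 41 reads in Tut7-/- LPS 2 h and Ctrl and none in wild type.
Some of these genes had the same sign in both genotypes, and the examples here were picked after their values were seen. Ripk2, the kinase downstream of NOD receptors, had 16 and 0 reads in Tut7-/- LPS 2 h and Ctrl, and 17 and 3 in wild-type LPS 2 h and Ctrl. Nckap1l, a haematopoietic subunit of the actin-regulating WAVE complex, had 56 and 6 in Tut7-/- LPS 2 h and Ctrl, and 7 and 0 in wild type. Stat2, which carries the type I interferon signal, had 3 and 0 in Tut7-/- and 10 and 0 in wild type. A call in 1 genotype thus does not show a difference between genotypes.

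Opposite calls were made for 5 of 259 genes (1.93%), which held at most 0.25% of the reads of any library. Nfe2l2 encodes NRF2, the regulator of the antioxidant response. It had 37 reads in Tut7-/- LPS 2 h and 0 in Tut7-/- Ctrl, and 0 in wild-type LPS 2 h and 10 in wild-type Ctrl. It was at least 4.72-fold higher in Tut7-/- and at least 5.72-fold lower in wild type. Cdc37l1, related to the HSP90 cochaperone CDC37, had 15 and 0 reads in Tut7-/- LPS 2 h and Ctrl, and 0 and 19 in wild-type LPS 2 h and Ctrl. Nup155, a nuclear pore scaffold protein, had 15 and 0 reads in Tut7-/- LPS 2 h and Ctrl, and 6 and 28 in wild-type LPS 2 h and Ctrl.

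The other pair went the opposite way. Acer3, an alkaline ceramidase, had 0 reads in Tut7-/- LPS 2 h and 33 in Tut7-/- Ctrl, and 26 in wild-type LPS 2 h and 2 in wild-type Ctrl. Naca, a chaperone of nascent polypeptides at the ribosome, had 2 and 13 reads in Tut7-/- LPS 2 h and Ctrl, and 36 and 6 in wild-type LPS 2 h and Ctrl. In the LPS 4 h libraries of Tut7-/- and wild type, Nfe2l2 had 0 and 0 reads, Cdc37l1 0 and 2, Nup155 0 and 11, Acer3 0 and 8, and Naca 2 and 7. The high LPS 2 h count of Nfe2l2 in Tut7-/- was thus not seen in the LPS 4 h library of that genotype. Relative to the median gene Nup155 was at -0.55 in wild type, and its lower call held under 1 of 5 scalings there. The lower calls of Nfe2l2 in wild type and of Naca in Tut7-/- held under 2 and 1 of 5.

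The difference between genotypes was measured by the ratio of the folds, Tut7-/- over wild type, with an exact interval for counting error. It was above 1 for 21 of 259 genes (8.11%) and below 1 for 24 (9.27%), calling ratios of at least 2 in either direction. With the library total none of the 9 genes with 1000 or more reads was called. Of these, Ccny (ratio of folds 1.70, 1.05 to 2.81) was called under the 4 other scalings and Vim (1.47, 1.31 to 1.66) under 1. For Il6 and Rnf213 the interval had no lower limit above 0, because wild-type Ctrl held 0 reads. No p-value is given, as there was 1 library per condition.

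Among genes with a higher ratio in Tut7-/-, the lower bound of the ratio of folds was 37.6 for Hist1h1d, a linker histone, 31.0 for Ccdc77 and 29.0 for Nfe2l2. Hist1h1d had 8 and 0 reads in Tut7-/- LPS 2 h and Ctrl, and 0 and 61 in wild-type LPS 2 h and Ctrl. Ccdc77 had 8 and 2 in Tut7-/- LPS 2 h and Ctrl, and 0 and 112 in wild-type LPS 2 h and Ctrl. The difference of both rests on a wild-type Ctrl count that Tut7-/- Ctrl did not share.
Others were lower in share in both genotypes, but less in Tut7-/-. Relative to the median gene, 3 of them were above 0 in Tut7-/-, Cbfa2t2 at 1.07, Lipa at 0.35 and Mbnl1 at 0.29 (log2). Lipa, the lysosomal acid lipase, had 25 and 47 reads in Tut7-/- LPS 2 h and Ctrl, and 2 and 48 in wild-type LPS 2 h and Ctrl, with a ratio of folds of 8.24 (1.88 to 75.8). Mbnl1, a splicing regulator, had 29 and 57 in Tut7-/- LPS 2 h and Ctrl, and 3 and 53 in wild-type LPS 2 h and Ctrl, with a ratio of 5.82 (1.66 to 31.7). In these 2 genes the Ctrl libraries were close and the LPS 2 h libraries differed. Cbfa2t2, a transcriptional corepressor, had 29 and 33 in Tut7-/- LPS 2 h and Ctrl, and 0 and 49 in wild-type LPS 2 h and Ctrl. Dennd2c, a DENN-domain Rab exchange factor, had 8 and 35 in Tut7-/- LPS 2 h and Ctrl, and 0 and 86 in wild-type LPS 2 h and Ctrl. The ratio for 4930589L23Rik was 5.81 (1.89 to 23.8).

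Other genes had a lower ratio in Tut7-/-. Mapre1, the microtubule plus-end protein EB1, had 0 and 36 reads in Tut7-/- LPS 2 h and Ctrl, and 14 and 12 in wild-type LPS 2 h and Ctrl. Ahnak, a giant scaffold protein of the cell cortex, had 2 and 40 in Tut7-/- LPS 2 h and Ctrl, and 23 and 17 in wild-type LPS 2 h and Ctrl, with a ratio of folds of 0.0254 (0.00263 to 0.121). Plec, the cytoskeletal linker plectin, had 0 and 2 in Tut7-/- LPS 2 h and Ctrl, and 37 and 4 in wild-type LPS 2 h and Ctrl. In wild type the folds were 0.68 (0.292 to 1.61) for Mapre1 and 0.789 (0.404 to 1.57) for Ahnak, and Plec was hardly measured in Tut7-/-.
Phip, a chromatin-binding bromodomain protein, had 2 and 44 reads in Tut7-/- LPS 2 h and Ctrl, and 9 and 4 in wild-type LPS 2 h and Ctrl. Ogt, the enzyme that attaches O-GlcNAc to proteins, had 2 and 54 in Tut7-/- LPS 2 h and Ctrl, and 17 and 48 in wild-type LPS 2 h and Ctrl, with a ratio of 0.0697 (0.00743 to 0.318). Rpl9-ps6, a pseudogene of a ribosomal protein gene, had 0 and 41 in Tut7-/- LPS 2 h and Ctrl, and 4 and 3 in wild-type LPS 2 h and Ctrl. Its parent Rpl9 had 1 and 59 in Tut7-/-, and 4 and 22 in wild type, and reads may be split between them. The difference calls of the genes named in these paragraphs, other than Rpl9, were made under all 5 scalings.

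**Figure D5:**
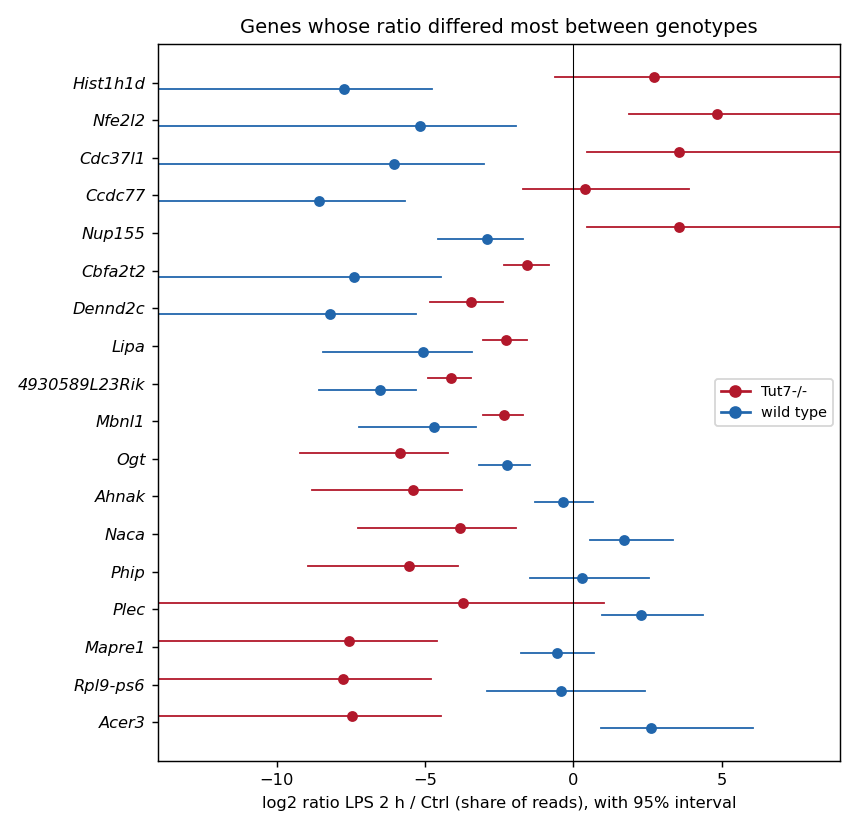
Log2 ratio of read shares, LPS 2 h over Ctrl (horizontal axis), with exact 95% intervals for counting error, in Tut7-/- (red, upper of each pair) and wild-type BMDMs (blue, lower) for 18 genes with opposite calls or the largest called differences. Intervals of genes with 0 reads in 1 library run to the edge of the plot, and the points of the 5 genes with opposite calls lie on either side of 0.

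Gene lists were described by their counts beside those of all 259 genes. The lists were written with earlier results of these data known, so their counts are descriptions and not tests. Of all 259 genes, 8.49% were higher in Tut7-/-, 10.8% in wild type and 2.7% in both. Of 56 NF-kB-driven inflammatory genes, 6 reached 10 reads, of which 4 were higher in Tut7-/-, 3 in wild type and 3 in both (Il6, Il10 and Tnf), with 0 lower. Their median log2 ratios were 2.08 in Tut7-/- and 1.60 in wild type, against -2.64 and -2.36 over all genes. Of 59 interferon-induced genes, 6 were measured, with 3 higher and 1 lower in Tut7-/-, 4 higher and 0 lower in wild type, and 3 higher in both (Usp18, Rnf213 and Trim30a). The gene lower in Tut7-/- was H2-D1, a class I histocompatibility antigen, with 2 and 11 reads in Tut7-/- LPS 2 h and Ctrl and 10 and 12 in wild type.

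The next counts stand beside 52.9% of all 259 genes lower in Tut7-/- and 43.6% in wild type. Of 48 lysosome and lipid genes, 6 were measured, and 4 were lower in Tut7-/-, 5 in wild type and 3 in both (Lpl, Lipa and Abca1), with medians of -3.23 and -2.92. Of 65 cytoskeleton and traffic genes, 16 were measured, and 9 were lower in Tut7-/-, 10 in wild type and 6 in both, with 1 higher in each genotype. Their summed share was 2.05% against 12.7% in Tut7-/- and 2.05% against 17.7% in wild type, of which Vim made up 1.43% against 9.80% and 1.43% against 14.4%. The medians of this list, -2.55 and -2.91, lay near those of all genes. All 3 mitochondrially encoded genes that were measured were lower in share in both genotypes, as were 24.3% of all 259 genes. So were all 4 measured signalling genes (Ccny, Fnip1, Gpr65 and Tlk1). Since that list was written with earlier results known, its count does not set signalling genes apart. Of the 28 genes with 100 to 999 reads, 23 were lower in both genotypes. Fnip1, Gpr65, Tlk1, mt-Atp6 and mt-Rnr2 were in that class. Relative to the median gene, mt-Atp6 was at 1.19 in Tut7-/- and 0.37 in wild type, and in wild type mt-Rnr2 was at 0.19 and Gpr65 at 0.38 (log2). Of 3 redox genes, Cat was lower in both, Prdx5, a peroxiredoxin, was lower in Tut7-/- alone, and Nfe2l2 was on opposite sides.

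Promoter words were looked up for the genes called in the same direction in both genotypes, because these genes moved together. RefSeq windows of 300 bases (GRCm38.p6) held 250 before and 50 after a RefSeq start. They were found for 4 of the 7 higher genes (Il6, Tnf, Rnf213 and Trim30a, which has 2 windows). An NF-kB-type word, GGG followed by any 3 bases and TTCC on either strand, was in 2 of these 5 windows, in 3 of 59 windows of the lower genes (5.08%) and in 5.56% of all 32851 windows. An interferon-response word, GAAA, any 2 bases and GAAA on either strand, was in 2 of the 5 windows, both of Trim30a, in 0 of 59 and in 3.44% of all. Each line gives 30 bases in the direction of the gene, with the word in capitals.
Il6, chr5:30013060-30013089, plus strand: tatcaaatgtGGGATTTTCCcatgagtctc
Rnf213, chr11:119390012-119390041, plus strand: gccaccaggcGGGGAATTCCagcaaggctg
Trim30a, chr7:104465210-104465239, minus strand: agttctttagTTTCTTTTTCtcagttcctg
Vim, lower in share, chr2:13574078-13574107, plus strand: gtgatcaccaGGAAAGCCCCtgaaaggcct
Counted from the RefSeq start of the window, the word begins at -44 in Il6, -77 in Rnf213, -36 in Trim30a and -223 in Vim. In GENCODE, Rnf213 starts at chr11:119393100 and Vim at chr2:13573927. By that annotation the Rnf213 word is farther upstream and the Vim word lies inside the gene. In Trim30a and Vim it reads on the opposite strand. A match of letters is a description and not a binding site. The windows held too few of the higher genes for a comparison.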

How the data were processed

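Total RNA of BMDMs was ligated to linker-1, depleted of rRNA, cut with RNase T1 and amplified with gene-specific primers. Alignment by the authors was with HISAT2 against mm10 (submitters' notes), and they deposited unnormalized counts, with a separate gene table per library. The sources used here do not name the counter, its strand setting or any duplicate removal. Duplicate sequencing is mentioned by the submitters, but each condition has 1 library here. The deposited Il6 lists hold other text, read sequences that the authors filtered for linker and primer. Groups followed the sample titles. The 4 Il6 lists of LPS 4 h libraries were not used. Names came from GENCODE M21, matched by identifier without its version (6 of 259 differ in version), and promoter windows from RefSeq.

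Ratios (log2) of library shares used a pseudocount of 0.5 read. Folds without it had Clopper-Pearson 95% intervals conditional on the sum of both counts, and ratios of folds had exact conditional intervals of the odds ratio. Folds against 0 reads used a floor of 3 reads. The additive fit (genotype plus LPS) used edgeR 4.0.16 in R 4.3.3. Its filterByExpr step (minimum count 10, total 15) kept 87 genes, with a common dispersion of 0.650. Scripts used Python 3.11.15 and SciPy 1.17.1 and were tested on simulated data. In counts simulated at the common dispersion, the additive fit recovered 2.5% of 4-fold and 11% of 16-fold changes. It called 0.597% of unchanged genes. The alternatives tried were scaling by TMM or by DESeq2 (1.42.0) size factors, the DESeq2 Wald test, limma-voom (limma 3.58.1), totals without the 10 most abundant genes, centring on the median gene, a minimum of 1 or 50 reads, no minimum fold, a pseudocount of 2, 6 libraries, no genotype term, no filter, and each library left out.

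Named genes were those the study is about, the 5 most abundant per library, up to 10 per direction called in both genotypes (30 or more reads in the highest library), opposite calls, up to 8 per direction with the largest called difference, and those that passed the additive fit. One gene that this rule selects is not reported here. The members, lists and rules were chosen with earlier results of these data known.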

Additional observations from a re-analysis of the deposited data

Results flagged for a closer look

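In 5 genes the library pair of Tut7-/- and that of wild type moved to opposite sides at LPS 2 h, each by a call for counting error. The difference in log2 ratio, Tut7-/- minus wild type, was 10.01 for Nfe2l2, 9.63 for Cdc37l1, 6.48 for Nup155, -10.08 for Acer3 and -5.53 for Naca. The difference was not tested, since each condition had 1 library. All 5 genes had between 20 and 99 reads over the 4 libraries. Relative to the median gene the differences were 10.29, 9.91, 6.75, -9.81 and -5.26. That centring shifts every difference by 1 constant, too small to turn these signs, so it is no further support. As given above, the lower calls of Nup155 and Nfe2l2 in wild type and of Naca in Tut7-/- did not hold under all scalings.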

How the results depend on the processing

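With TMM factors, 58 genes were higher and 69 lower in Tut7-/-, 51 and 74 in wild type, 20 and 16 in both, 12 on opposite sides and 36 above and 13 below in difference, with medians of -0.25 and -0.65. In the same order, DESeq2 size factors gave 54 and 73, 55 and 58, 19 and 11, and 11 opposite (medians -0.36 and -0.42). Totals that left out the 10 most abundant genes gave 58 and 73, 58 and 57, 21 and 11, and 11 opposite (-0.28 and -0.32). Centred on the median gene, 64 and 61, 61 and 39, 24 and 7, and 12 opposite were called. A minimum of 50 reads left 7 and 43, 9 and 39, 35 lower in both, 2 opposite, and 9 above and 12 below in difference (-2.39 and -2.11). Without a minimum, 208 genes were lower in Tut7-/- (median -2.97), and a pseudocount of 2 gave medians of -2.39 and -1.80. The scaling alternatives move every ratio of a pair by 1 constant, and each of them raised the ratios of both pairs.

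In the additive fit, genes that rose and fell numbered 0 and 0 with TMM factors, 7 and 2 with DESeq2 size factors, 6 and 0 when the 10 most abundant genes were left out of the totals, 5 and 11 with 6 libraries, 5 and 38 without the genotype term, 6 and 15 without a filter, 1 and 1 with the DESeq2 Wald test (26 genes at an unadjusted p under 0.05) and 6 and 25 with limma-voom. With 1 library left out, 2 to 5 rose and 3 to 11 fell. The cause was not tested.

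Among genes picked by the naming rule, called ratios of the following turned positive. Other genes, such as Rab10, turned as well. Cbfa2t2 in Tut7-/- was at 0.82 with TMM factors, 0.71 with DESeq2 size factors, 0.79 with the 10 most abundant genes left out and 1.07 relative to the median gene. In Tut7-/-, Lipa was at 0.11 with TMM factors and at 0.071 and 0.35 in the last 2 of these, and Mbnl1 at 0.040, 0.0059 and 0.29 likewise. Ogt in wild type was at 0.11 relative to the median gene. CT010467.1 was at 0.18, 0.066, 0.14 and 0.42 in Tut7-/- under these 4, and at 0.033 and 0.35 in wild type under the last 2. In the additive fit without the 10 most abundant genes CT010467.1 was at 0.082. Of the other values of named genes, 275 of the pair ratios stayed within their interval and 164 moved beyond it, and of the additive values 271 kept their side of the threshold, 48 lost and 39 gained a call.

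No paired analysis was possible beyond the additive fit, which sets LPS 2 h against Ctrl within each genotype, because each condition had 1 library and so no replicates to block on. Of the 259 genes, 222 had under 100 reads, which leaves wide intervals. Read counts here do not rank transcripts by abundance, as forward primers are named for Zc3h12a and Il6 only.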
